A study of Mus musculus with 8 samples.

Results

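A set of 10 genes of fatty acid synthesis in the cytosol were followed in mouse liver: Slc25a1, Acly, Acss2, Aacs, Me1, Acaca, Acacb, Mid1ip1, Fasn and the regulator Srebf1. They were chosen by name with earlier results of these data known, and all 10 were found among the 21358 genes of the expression table. Shares of all tested genes given beside their counts are therefore a background and not a test of the list. The series holds 8 liver RNA libraries from mice kept for 22 weeks on fasting every other day. Of these, 4 belonged to the group feeding glucose (FG 93, FG 94, FG 95 and FG 96) and 4 to starvation glucose (SG 101, SG 103, SG 104 and SG 105). By label both groups shared the fasting regimen, and both names hold glucose, with feeding in FG and with starvation in SG. Whether the amount or schedule of glucose was the same is not given. The labels name a model of metabolic dysfunction but give no strain, sex, age, diet, glucose dose or route, and no hour or interval between the last glucose and collection. Whether collection times differed is not given. The labels do not say that each library is a separate animal, so p-values here reflect library-to-library spread, which may be technical.

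Liver cells build fatty acids in the cytosol from acetyl-CoA, and the pathway is known to be active after carbohydrate intake and low in fasting. Acetyl-CoA reaches the cytosol mainly as citrate and is carboxylated to malonyl-CoA. Fatty acid synthase then extends the chain with malonyl-CoA and NADPH until palmitate is released. Srebf1 encodes SREBP-1, a transcription factor made as a membrane-bound precursor in the endoplasmic reticulum. It is escorted by Scap, held back by the Insig proteins and released by cleavage, so that its transcript level is not a measure of the active protein. The table has a single row per gene, and the alternative first exons that give the SREBP-1a and SREBP-1c forms cannot be told apart in it.

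Levels are given as FPKM, fragments per kilobase of gene per 1e+06 counted fragments, and a comparison between genes depends on the gene length used. The lengths behind the FPKM, recovered with the fragment counts, were 0.279 (Acss2) to 1.49 (Acly) times the GENCODE vM21 exon union. Changes of 1 gene between groups share its length, apart from a small effect through the added 1 FPKM. Recovered counted totals were 36545128 to 41977438 fragments per library, and the values of the 10 genes rested on 415 to 84202 fragments each. Of the 8 hepatocyte markers 0 lay below 1 FPKM throughout, and their summed level was 51754 to 62143 FPKM in FG and 55138 to 70372 in SG, mostly from Alb. Of the 8, Apoa1, Serpina1a and Cps1 were called higher in SG and 0 lower (median log2 fold change 0.32), where 3.73% of tested genes were called higher. Adipocytes also make fatty acids. Of their 7 markers, Adipoq, Lep, Retn and Plin1 were below 1 FPKM in every library. Over the 8 libraries Fabp4 was at 6.01 to 17.6 FPKM, Cidec at 1.86 to 9.34 and Cfd at 0.0258 to 2.42. The 7 adipocyte markers summed to 11.4 to 29.6 FPKM in FG and 9.95 to 22.8 in SG. Marker sums of sinusoidal endothelium (7 genes, 114.7 to 136 FPKM in FG and 90.2 to 101 in SG) and of cholangiocytes (6 genes, 21.9 to 27.7 and 13.0 to 19.1) did not overlap between the groups. Over all tested genes 15.6% were called lower, and 21.8% were lower in SG without overlap between the groups. Of the 7 endothelial genes 2 were called lower, Clec4g (mean 51.6 to 34.7 FPKM) and Fcgr2b (33.3 to 27.1), and 0 higher. Stab2 and Kdr had log2 fold changes of -0.0074 and -0.09. The Lyve1 mean was higher in SG, through SG 105 (8.36 FPKM). Of 2 tested cholangiocyte genes, Spp1 was called lower (mean 19.03 to 12.41 FPKM). Krt19 did not pass, with FG 96 highest at 8.15 FPKM, and the untested Sox9 had a higher mean in SG. Acinar pancreas markers (5 genes) summed to 186 FPKM in FG 94 against 6.24 to 34.4 in the other libraries. The part of these in the results below was not tested. In bulk RNA, fewer cells of a type and less RNA per cell cannot be told apart.

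Of the 10 genes 9 were called lower in SG and 0 higher, where 15.6% of the 9867 tested genes were called lower (limma on log2(FPKM + 1), adjusted p below 0.05 over all tested genes). For 8 of the 10, every SG library lay below every FG library, a separation seen for 21.8% of tested genes. All 10 passed the filter on low values in both groups. The median log2 fold change was -1.99 over the 10 genes and -0.14 over all tested genes. The 2 genes whose groups overlapped were Slc25a1, which did not pass, and Acss2, which passed narrowly. In both the overlap came from SG 101, the highest SG library for each of the 10 genes. Among the 1535 other genes called lower in SG, SG 101 was the highest SG library for 46.4%. Without SG 101 all 10 genes were called lower, against 19.2% of tested genes. All 10 were then separated, which follows from leaving out the only library that made the overlap. Without any one of the other libraries 8 of the 10 were called lower.

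**Figure D1:**
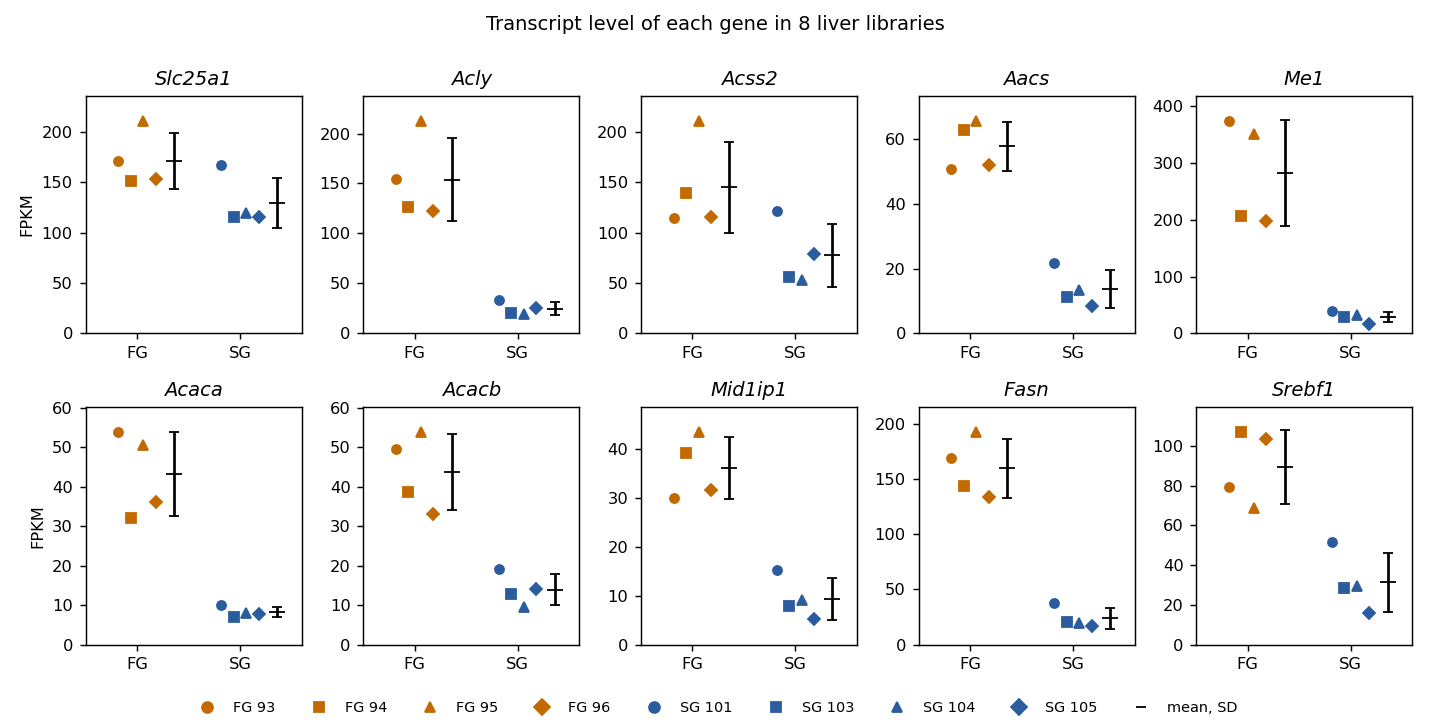
FPKM of each gene (vertical axes from 0, scaled per gene) in the 4 FG (orange) and 4 SG (blue) libraries, one symbol per library, with the group mean and SD in black. Every SG library lies below every FG library in 8 panels, and in the Slc25a1 and Acss2 panels SG 101 reaches into the FG range.

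The carboxylases make malonyl-CoA from acetyl-CoA. Acaca (acetyl-CoA carboxylase 1, NCBI gene 107476, chromosome 11 from 84129635 to 84401651 in GRCm38) is the cytosolic isozyme that feeds synthesis. Its level was 53.8, 32.2, 50.6 and 36.1 FPKM in FG 93, FG 94, FG 95 and FG 96, and 10.1, 7.09, 7.96 and 7.66 FPKM in SG 101, SG 103, SG 104 and SG 105. The highest SG library stood at less than the lowest FG library. The mean fell 5.26-fold, from 43.2 ± 10.7 to 8.21 ± 1.33 FPKM (SD, n = 4 each), a log2 fold change of -2.24 (SE 0.177, limma adjusted p = 0.000433). In SG it had the lowest mean level of the 10 genes, 1.11 FPKM below Mid1ip1, whose SD was 4.27. Rescaled to the exon union it was the lowest of the 10 in both groups.

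Acacb (acetyl-CoA carboxylase 2, NCBI gene 100705, chromosome 5 from 114146321 to 114250761) encodes the isozyme at the mitochondrial surface, whose malonyl-CoA restrains fatty acid import for oxidation. Its level was 49.7, 38.6, 53.8 and 33.1 FPKM in the FG libraries in the same order, and 19.0, 12.9, 9.47 and 14.0 FPKM in the SG libraries. The groups did not overlap, and the log2 fold change was -1.61 (SE 0.211, limma adjusted p = 0.00286). In FG the deposited levels of Acaca and Acacb were 43.2 ± 10.7 and 43.8 ± 9.61 FPKM. Rescaled to the exon union (17074 bases for Acaca where the FPKM used 10675) they were 27.0 ± 6.67 and 43.0 ± 9.44. Within libraries the difference Acaca minus Acacb on the log2(FPKM + 1) scale was -0.03 ± 0.182 in FG and -0.66 ± 0.292 in SG. That shift of -0.64 did not pass (exact two-sided permutation p = 0.0571, adjusted p = 0.0857 over 45 pairs of the 10 genes), with SG 104 at -0.23 and the other SG libraries at -0.85 to -0.78.

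Mid1ip1 (NCBI gene 68041, chromosome X from 10717365 to 10719702) encodes MIG12, which promotes polymerization and activity of acetyl-CoA carboxylase. It was at 29.9, 39.2, 43.4 and 31.7 FPKM in FG and at 15.3, 7.81, 9.0 and 5.20 FPKM in SG. SG 105 was the lowest and SG 101 the highest of the SG libraries, still below all FG libraries. The log2 fold change was -1.92 (SE 0.26, limma adjusted p = 0.00319).

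Fasn (fatty acid synthase, NCBI gene 14104, chromosome 11 from 120805958 to 120825166) carries out all steps from malonyl-CoA to palmitate on one polypeptide. Its level was 169, 143, 192 and 134 FPKM in FG and 38.0, 20.6, 19.4 and 16.8 FPKM in SG. SG 103, SG 104 and SG 105 lay close together and SG 101 higher, while the FG libraries stood far above all 4. Fasn fell 6.74-fold, by 2.76 on the log2 scale (SE 0.232, limma adjusted p = 0.000433). Without SG 101 the log2 fold change was -3.00 (SE 0.138, limma adjusted p = 4.66e-05).

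Among the genes of acetyl-CoA supply, those of consecutive steps of the citrate route changed by different amounts. Slc25a1 (NCBI gene 13358, chromosome 16 from 17925211 to 17928219) is the mitochondrial carrier that exports citrate. It was at 171, 151, 211 and 153 FPKM in FG and at 167, 116, 119.7 and 116 FPKM in SG. SG 103, SG 104 and SG 105 lay below the FG range and SG 101 lay within it. The log2 fold change was -0.41 (SE 0.151) and did not pass (limma adjusted p = 0.086, exact permutation p = 0.0857). Without SG 101 the SG mean was 117 ± 2.32 FPKM and the log2 fold change -0.54 (SE 0.122, limma adjusted p = 0.0193).

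Acly (ATP citrate lyase, NCBI gene 104112, chromosome 11 from 100476352 to 100528000) splits the exported citrate into acetyl-CoA and oxaloacetate. Its level was 154, 127, 212 and 122 FPKM in FG and 33.4, 20.5, 19.6 and 25.3 FPKM in SG. The groups were far apart, and Acly fell 6.23-fold, by 2.59 on the log2 scale (SE 0.21, limma adjusted p = 0.000433). Within libraries Slc25a1 minus Acly was 0.18 ± 0.145 in FG and 2.36 ± 0.175 in SG on the log2(FPKM + 1) scale. The shift of 2.18 had an adjusted p = 0.0495 over the 45 pairs (exact permutation p = 0.0286, the smallest that 4 against 4 libraries allow).

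Acss2 (acetyl-CoA synthetase, NCBI gene 60525, chromosome 2 from 155518043 to 155562743) makes acetyl-CoA from acetate in the cytosol and nucleus. It was at 115, 139.8, 211 and 115 FPKM in FG and at 122, 56.1, 53.5 and 78.6 FPKM in SG. SG 101 lay above FG 93 and FG 96, and the other SG libraries below all FG libraries. The log2 fold change of -0.93 (SE 0.281) passed narrowly (limma adjusted p = 0.0464, exact permutation p = 0.0857). It did not pass after median-ratio scaling (0.129), without the filter on low values (0.124), or without any one of the libraries other than SG 101 (0.0607 to 0.115). Without SG 101 the log2 fold change was -1.17 (SE 0.229, limma adjusted p = 0.0122). Acly minus Acss2 went from 0.09 ± 0.24 in FG to -1.56 ± 0.204 in SG within libraries (exact permutation p = 0.0286, adjusted p = 0.0495). At the deposited scale Acss2 lay above Acly in 4 of 4 SG libraries. Rescaled to the exon union (10163 bases for Acss2 where the FPKM used 2833, and 5279 for Acly where it used 7850), it lay above Acly in 0 of 4, so the order of these levels depends on the length.

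Aacs (acetoacetyl-CoA synthetase, NCBI gene 78894, chromosome 5 from 125475873 to 125517405) activates the ketone body acetoacetate in the cytosol for lipid synthesis. It was at 50.6, 62.8, 65.5 and 51.8 FPKM in FG and at 21.7, 11.2, 13.4 and 8.34 FPKM in SG. The FG values kept within a narrow range, and all SG values lay below it. Aacs fell by 2.07 on the log2 scale (SE 0.238, limma adjusted p = 0.00166).

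Me1 (cytosolic malic enzyme, NCBI gene 17436, chromosome 9 from 86581363 to 86695914) makes NADPH while turning malate into pyruvate. Its level was 374, 206, 351 and 198 FPKM in FG and 39.1, 28.3, 31.6 and 16.6 FPKM in SG. FG 93 and FG 95 were high and FG 94 and FG 96 lower, and the SG libraries stood below them all. Me1 fell 9.78-fold, by 3.25 on the log2 scale (SE 0.288, limma adjusted p = 0.000469). By size of the fall on that scale it ranked 5 among the 9867 tested genes, Fasn 9 and Acly 11.

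Srebf1 (NCBI gene 20787, chromosome 11 from 60199084 to 60224186) was at 79.1, 107, 68.6 and 104 FPKM in FG and at 51.6, 28.6, 29.4 and 15.8 FPKM in SG. SG 101 was the closest to the FG libraries and SG 105 the lowest. Srebf1 fell 2.86-fold, by 1.58 on the log2 scale (SE 0.303, limma adjusted p = 0.011), and ranked 43 by size of the fall. The call held without any one library (highest limma adjusted p = 0.0316). With Fasn, Acaca and Acly it made 4 of 10 genes on chromosome 11, which holds 8.36% of the tested genes with a position.

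**Figure D2:**
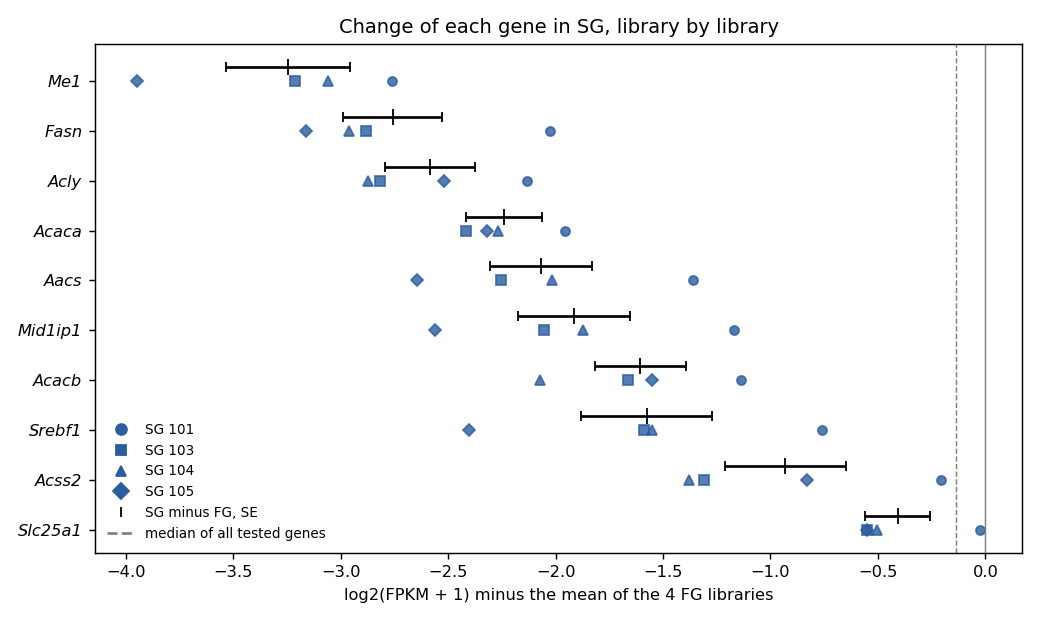
Each SG library's log2(FPKM + 1) minus the mean of the 4 FG libraries (blue symbols, one per library), with limma's SG minus FG change and its SE (black bars) and the median of all tested genes (dashed line at -0.14). Genes run from Me1 at -3.25 to Slc25a1 at -0.41, and SG 101 is the rightmost symbol in all 10 rows.

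Levels by deposited FPKM changed order between the groups. In FG the order by mean FPKM was Me1, Slc25a1, Fasn, Acly, Acss2, Srebf1, Aacs, Acacb, Acaca and Mid1ip1. Neighbours from Slc25a1 to Acss2, and from Acacb to Mid1ip1, differed by less than the larger SD of each pair. For SG it was Slc25a1, Acss2, Srebf1, Me1, Acly, Fasn, Acacb, Aacs, Mid1ip1 and Acaca. There the neighbours from Srebf1 to Fasn, and from Acacb to Acaca, differed by less than their SD. Me1 thus went from the first place, at 283 ± 93.1 FPKM, to a level near that of Srebf1, at 28.9 ± 9.33 and 31.3 ± 14.8 FPKM. Rescaled to the exon union, Me1 was still first in FG and Slc25a1 first in SG, while Acss2 moved from place 5 to 8 in FG and from 2 to 6 in SG, and Acly from 4 to 2 and from 5 to 2. Fragments of the 10 genes together were 0.51% to 0.759% of the counted total in FG libraries and 0.118% to 0.207% in SG libraries, the upper value being that of SG 101. Fasn stood at the percentile 96.2 of tested genes by mean level in FG and 81.8 in SG, and Acaca at 87.7 and 60.3.

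All 45 pairs among the 10 genes were compared by the change of their difference within libraries, and 26 (57.8%) reached the smallest exact p of 0.0286, with an adjusted p = 0.0495. That adjusted value depends on how many pairs reach it, and pairs that share a gene are not independent. Me1 fell more than 8 of the 9 other genes and Fasn more than 6. Slc25a1, which did not pass itself, had a smaller change than 8 of them, and Acss2 than 7. Against Srebf1, the falls of Me1 and Fasn were larger. Fasn minus Srebf1 was 1.09, 0.42, 1.47 and 0.36 in FG and -0.43, -0.46, -0.57 and 0.08 in SG, without overlap. The same was seen for Me1 minus Srebf1, with 1.61 ± 0.78 in FG and -0.06 ± 0.227 in SG. The shifts of Acly (-1.01, adjusted p = 0.113) and Acaca (-0.66, adjusted p = 0.198) against Srebf1 did not pass the exact permutation test, which does not show that they changed alike.

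**Figure D3:**
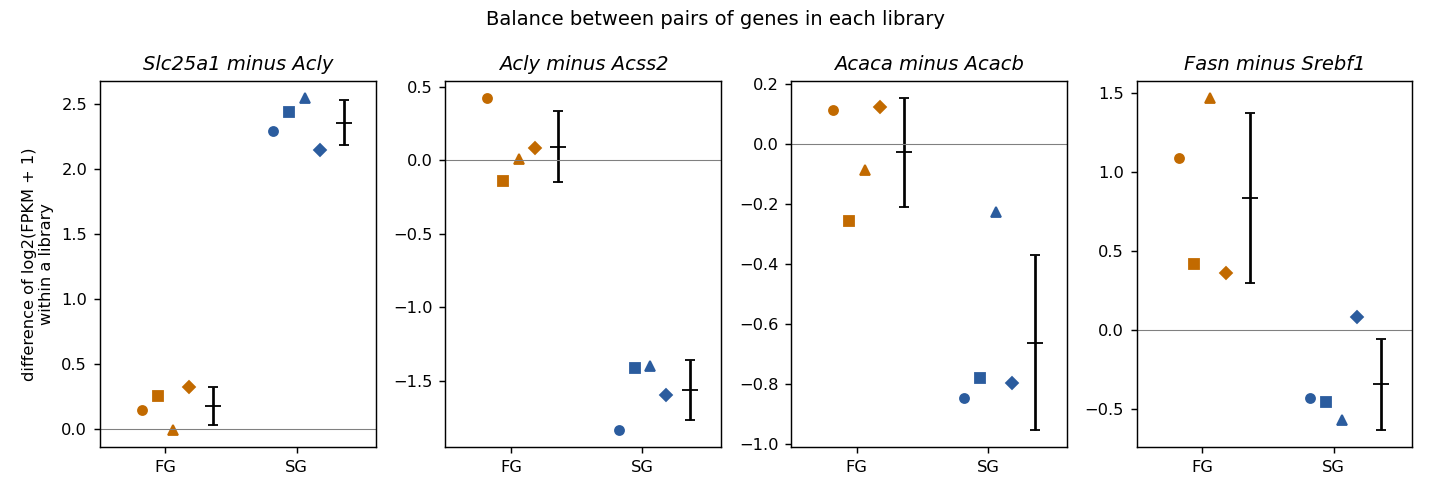
Difference of log2(FPKM + 1) between 2 genes within each library, for FG (orange) and SG (blue), with group mean and SD in black; the vertical axes differ. The groups are apart for Slc25a1 minus Acly (2.18 higher in SG), Acly minus Acss2 (-1.65) and Fasn minus Srebf1 (-1.18), and overlap for Acaca minus Acacb.

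Within the groups the genes did not all order the libraries alike. In FG, FG 93 and FG 95 were the highest libraries for 6 of the 10 genes, as they were for 48.5% of the other genes called lower. FG 94 and FG 95 were the highest for Acss2, Aacs and Mid1ip1, and for 8.99% of the other genes called lower. Srebf1 alone among the 10 was highest in FG 94 and FG 96, as were 6.25% of the other genes called lower. FG 95, the highest library for 7 of the genes, was the lowest for Srebf1, at 0.36 below its FG mean on the log2 scale. Of the other genes called lower, 32.9% had their highest FG value in FG 95 and 16.9% their lowest. In SG, Srebf1, Fasn, Me1, Aacs and Mid1ip1 were lowest in SG 105, which held the lowest SG value of 52.6% of the other genes called lower. With 4 libraries in a group these orders are a description without a test.

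**Figure D4:**
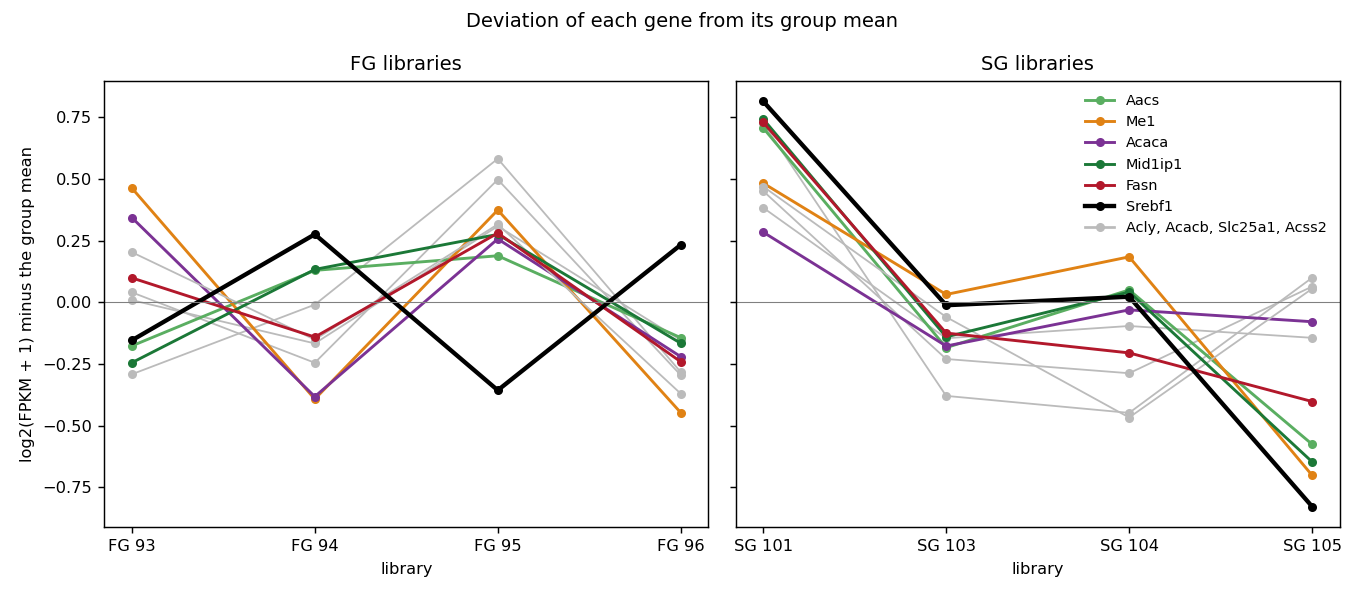
Deviation of log2(FPKM + 1) from the group mean for each gene in each library, FG on the left and SG on the right; lines join the values of one gene and libraries have no order. Srebf1 (black) runs opposite to most genes across the FG libraries, and all 10 genes are highest in SG 101 among the SG libraries.

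Likeness between genes was measured as the root mean square difference of their log2(FPKM + 1) profiles over the 8 libraries, each centred on its own mean. Aacs and Mid1ip1 were each other's nearest among 9866 other tested genes, at 0.0922. Their difference within libraries was 0.58 to 0.74 in FG and 0.47 to 0.59 in SG on the log2(FPKM + 1) scale. The 5 genes nearest to Fasn were Acly (0.234), Tkfc (0.319), Gm38467 (0.325), Acaca (0.352) and Me1 (0.362). Among those nearest to Srebf1 were Klhdc7a (0.226), Manf (0.275), Rnf43 (0.278) and Mid1ip1 (0.33). The nearest of the 10 to Acacb was Acaca, at rank 51, and to Slc25a1 it was Acss2, at rank 6740. Since the measure spans both groups, it is small for genes that fell by a like amount.

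The start regions of the genes are shown for Fasn and Acly, the nearest pair among the largest falls, for Srebf1 and, as the gene that did not pass, for Slc25a1. Each stretch holds the 120 bases just before a start, from RefSeq on GRCm38.p6, 5′ to 3′ on the strand of the gene. No exon of GENCODE vM21 overlaps them. For Srebf1, which has 3 starts in that table, the most downstream is shown. Capitals mark CCAAT boxes (CCAAT or its reverse complement) and GC boxes (GGGCGG or its reverse complement). The stretches lie at chr11:120824548-120824667, chr11:100528001-100528120, chr11:60210472-60210591 and chr16:17928220-17928339, all on the minus strand.
Fasn: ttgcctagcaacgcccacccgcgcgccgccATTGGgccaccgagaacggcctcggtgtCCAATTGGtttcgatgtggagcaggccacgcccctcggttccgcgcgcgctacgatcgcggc
Acly: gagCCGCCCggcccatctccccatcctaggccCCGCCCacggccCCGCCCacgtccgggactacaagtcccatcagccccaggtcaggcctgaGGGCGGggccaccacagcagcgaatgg
Srebf1: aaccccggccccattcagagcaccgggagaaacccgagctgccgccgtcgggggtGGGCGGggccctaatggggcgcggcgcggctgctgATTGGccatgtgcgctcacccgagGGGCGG
Slc25a1: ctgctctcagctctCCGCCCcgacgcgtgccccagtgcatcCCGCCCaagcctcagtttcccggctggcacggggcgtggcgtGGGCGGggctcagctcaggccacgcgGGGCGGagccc

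The Fasn stretch holds 3 CCAAT matches, 2 of which overlap on opposite strands, and 0 GC boxes. Acly and Slc25a1 have 4 GC boxes each and 0 CCAAT matches in the stretches shown, and 1 and 2 CCAAT matches in their full windows. Srebf1 has 1 CCAAT match and 2 GC boxes. Over the full windows of 250 bases before to 50 after a start, 8 of the 13 windows of the 10 genes hold a CCAAT match, where 37.4% of all 32851 windows do. A GC box is found in 7 of them, where the share of all windows is 35.7%. The E-box CACGTG occurs in 1, that of Slc25a1, and in 7.15% of all windows. The sterol element spelled TCACNCCAC, searched on both strands like the others, is in 0 of the 13 and in 1.24% of all windows. These counts say only which letters stand in the windows. Some listed starts lie inside the annotated gene rather than at its first base. They are those of Acaca and Acacb, every Srebf1 start, the downstream Me1 start and, by 619 bases, that of Fasn.

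Related genes were taken from 10 lists of the pathway and its control. Of their 114 tested genes, 21 were called lower and 9 higher in SG, where 15.6% and 3.73% of all tested genes were. These shares also stand beside the counts of each list below. After median-ratio scaling, which moved the median change over the tested genes from -0.14 to 0.01 (log2), 9 were called lower and 11 higher, beside 5.06% of all tested genes lower and 5.52% higher. Under that scaling 8 of the 10 cytosolic synthesis genes were called lower. The count was also 8 with no filter on low values, where 4.28% of 21358 genes were called lower.

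**Figure D5:**
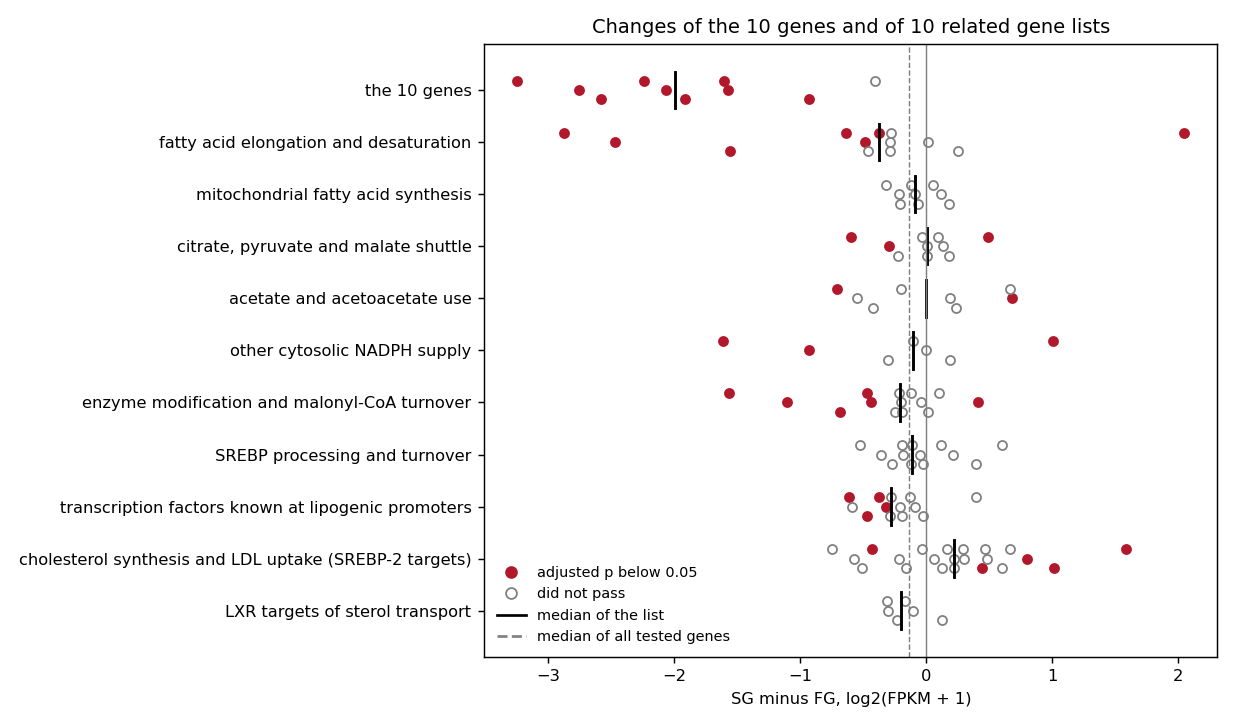
SG minus FG change on the log2(FPKM + 1) scale of the 10 genes (top row) and of the tested genes of 10 related lists, with called genes in red, genes that did not pass in white, list medians as black bars and the median of all tested genes dashed. The median of the 10 genes is -1.99, and the list medians lie between -0.38 and 0.22.

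The steps after palmitate were lower in part. Of 13 tested genes of elongation and desaturation, 6 fell and 1 rose, with a median of -0.38 (3 fell and 2 rose after median-ratio scaling). Elovl6, which elongates palmitate, fell from 103 ± 22.5 to 13.0 ± 1.49 FPKM (limma adjusted p = 3.24e-05), Scd1, a desaturase, from 4719 ± 417 to 882 ± 297 and Elovl5, an elongase of polyunsaturated chains, from 258 ± 33.5 to 88.5 ± 22.8. Elovl3 rose from 15.3 ± 3.84 to 76.8 ± 53.5 FPKM (limma adjusted p = 0.0135). The separate mitochondrial synthesis route, which makes the lipoate precursor, had 0 of 9 tested genes called in either direction, with a median of -0.09. An unadjusted p below 0.05 was reached by 1, and limma voom on recovered fragments called 0. Without SG 101, and separately with library weights, 1 was called lower.

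Calls among enzymes that feed the pathway went in both directions. In the citrate, pyruvate and malate shuttle 2 of 10 tested genes were called lower and 1 higher (median 0.01). Over all tested genes 15.6% were called lower and 3.73% higher. After median-ratio scaling 0 of the 10 were called lower and 1 higher. Cs, citrate synthase, fell from 56.2 ± 8.91 to 36.6 ± 4.66 FPKM, a call lost after median-ratio scaling (limma adjusted p = 0.0514). Mpc2, a subunit of the pyruvate carrier, fell from 157 ± 10.3 to 128 ± 10.3 FPKM, lost under that scaling (0.342) and without any one library other than SG 104 (highest limma adjusted p = 0.12). Slc13a5, the plasma membrane citrate importer, was below the filter at 0.349 ± 0.0754 and 0.299 ± 0.146 FPKM.

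For NADPH beside Me1, 2 of 7 tested genes fell and 1 rose (median -0.11). Pgd fell from 46.3 ± 14.2 to 14.3 ± 4.13 FPKM and G6pdx from 6.12 ± 1.29 to 2.74 ± 0.722 FPKM, both dehydrogenases of the pentose phosphate pathway (limma adjusted p = 0.004 and 0.00895). Aldh1l1, which makes NADPH from formyl tetrahydrofolate, rose from 281 ± 39.7 to 572 ± 138 FPKM (limma adjusted p = 0.00801). Among genes of acetate and acetoacetate use 1 of 8 fell and 1 rose (median -0.005). Acss3, a mitochondrial acyl-CoA synthetase, fell from 5.26 ± 0.765 to 2.88 ± 0.904 FPKM (limma adjusted p = 0.0224; 0.0512 after median-ratio scaling and at most 0.0608 without FG 93, FG 94 or SG 105, where the call was lost). Acat3, a cytosolic thiolase, rose from 62.5 ± 4.27 to 101 ± 14.3 FPKM (limma adjusted p = 0.0062).

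Of 14 tested genes that modify these enzymes or turn over malonyl-CoA, 5 fell and 1 rose (median -0.21), and 3 fell and 1 rose after median-ratio scaling. Slc5a6, which imports biotin, the cofactor of the carboxylases, fell from 6.32 ± 1.05 to 2.45 ± 0.898 FPKM (limma adjusted p = 0.00712). Hlcs, which attaches the biotin, had 1.45 ± 0.34 FPKM in FG and 1.63 ± 0.387 in SG and did not pass (limma adjusted p = 0.63). Thrsp, the Spot 14 protein and a relative of Mid1ip1, fell from 821 ± 191 to 304 ± 178 FPKM (limma adjusted p = 0.017). Its call was lost with no filter on low values (limma adjusted p = 0.0573). Prkaa2, a catalytic subunit of the AMP-activated kinase that inhibits the carboxylases, fell from 15.2 ± 3.13 to 9.0 ± 1.07 FPKM (limma adjusted p = 0.0146). Its subunits Prkab1 (15.2 ± 1.32 to 10.7 ± 0.456 FPKM) and Prkag1 (25.1 ± 2.77 to 18.2 ± 0.401) fell too, and lost the call after median-ratio scaling (limma adjusted p = 0.0627 and 0.078). Prkag2, a further subunit, was the 1 gene of the list that rose, from 2.62 ± 0.498 to 3.79 ± 0.302 FPKM (limma adjusted p = 0.035), and was still called after median-ratio scaling (0.0214). It falls outside the naming rule and was named after its values were seen, and without any one library other than FG 95 or SG 101 it did not pass (highest limma adjusted p = 0.0965). The other catalytic subunit Prkaa1 was at 2.74 ± 0.149 and 2.46 ± 0.47 FPKM (limma adjusted p = 0.481). Mlycd, which removes malonyl-CoA, was at 29.6 ± 3.24 and 29.9 ± 2.60 FPKM (limma adjusted p = 0.934).

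Beside the fall of Srebf1, none of 13 tested genes of SREBP processing and turnover was called in either direction by limma, with a median of -0.11. An unadjusted p below 0.05 was reached by 4, and limma voom on recovered fragments called 0. Limma with library weights called 1 lower and 1 higher, and without FG 95 it called 1 lower and 0 higher. Scap was at 28.5 ± 3.38 and 33.2 ± 3.65 FPKM, Insig1 at 62.3 ± 10.6 and 67.7 ± 12.7, and Insig2 at 12.2 ± 2.91 and 19.6 ± 7.87 (limma adjusted p = 0.207, 0.641 and 0.137). Srebf2, which encodes the SREBP of cholesterol synthesis, was at 7.63 ± 1.44 and 10.3 ± 1.61 FPKM (log2 fold change 0.39, limma adjusted p = 0.0833), and was called higher after median-ratio scaling (0.0358). Of 22 genes of cholesterol synthesis and LDL uptake, known as targets of that protein, 4 rose and 1 fell (median 0.22; 2 rose and 3 fell without SG 101). Msmo1 rose from 21.5 ± 9.76 to 66.1 ± 26 FPKM (limma adjusted p = 0.0129) and Tm7sf2 from 37.6 ± 7.87 to 66.3 ± 14.5 (0.017, and 0.0534 without FG 93). Idi1 (4.72 ± 1.95 to 10.1 ± 2.42 FPKM) and Ebp (94.3 ± 6.76 to 129.5 ± 21.7) rose too (limma adjusted p = 0.0323 and 0.0369). Idi1 lost the call without any one library other than FG 94 or FG 96 (highest limma adjusted p = 0.0802). Ebp lost it without any one other than SG 103 (0.103).

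Among 13 transcription factors known at lipogenic promoters 4 fell and none rose (median -0.28), and 1 fell after median-ratio scaling. Nfyb, a subunit of the factor that binds CCAAT, fell from 8.72 ± 1.31 to 5.35 ± 0.903 FPKM (limma adjusted p = 0.0184, and 0.0568 without FG 93). Usf2, Nr1h3 (LXR alpha) and Nr1h2 (LXR beta) had log2 fold changes of -0.47, -0.32 and -0.38 (limma adjusted p = 0.0154, 0.0341 and 0.035), and each lost the call after median-ratio scaling (0.073, 0.284 and 0.181). Nr1h3 also lost it without any one library other than FG 94 or SG 101 (highest limma adjusted p = 0.0965), and Nr1h2 without any one other than FG 96 or SG 101 (0.089). Mlxipl, the carbohydrate response factor, had 64.0 ± 21.3 FPKM in FG and 41.2 ± 11.3 in SG and did not pass (limma adjusted p = 0.157; 0.0328 without FG 95). LXR targets of sterol transport, such as Abca1, had 0 of 6 genes called in either direction by limma (median -0.20), with 1 at an unadjusted p below 0.05 and 0 called by limma voom.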

How the data were processed

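Mouse liver RNA was measured in 8 libraries, 4 FG and 4 SG, grouped by the labels. The deposited values are FPKM, made by the authors for 21358 genes; the submitters' processing notes name HISAT2, HTSeq, fastp and DESeq2 and the builds mm10 and GRCm38, while versions, roles and strand handling are not given in the sources used here. All per-sample columns were matched. Genes with at least 1 FPKM in at least 4 libraries (9867) were tested as log2(FPKM + 1) with limma 3.58.1 in R 4.3.3 (empirical Bayes with a variance trend, no covariates, Benjamini-Hochberg adjustment over all tested genes, called below 0.05, two-sided). Fold changes are SG minus FG on that scale, which understates changes of low genes; plain folds are ratios of mean FPKM. Exact two-sided permutation tests ran over 70 assignments of libraries, and pairs were adjusted over 45. Whole fragment counts were recovered from the FPKM steps (tolerance 0.02 fragments) for 21357 genes, and their sums differed from the totals by at most 0.0392%. On simulated data with 200 changed genes, limma called 95% of those changed by 2 and 87% of those changed by 1 on the log2 scale. The 10 genes and the lists were chosen with earlier results of these data known. Genes named from a list are its up to 4 called members with the smallest p, and 12 fixed ones (Thrsp, Mlxipl, Scap, Insig1, Insig2, Srebf2, Mlycd, Nr1h3, Prkaa1, Prkaa2, Slc13a5 and Hlcs); some genes that the rules select are not reported here. Alternatives covered the pseudocount, filter, scaling, variance model, library weights, limma voom on recovered fragments and levels per exon union length (both added after seeing the data) and leaving out each library. Positions are those of RefSeq for GRCm38.p6.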

Additional observations from a re-analysis of the deposited data

Results flagged for a closer look

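A library stood apart from the other 3 of its group (by the gap to the nearest library over the group's range, on the log2 scale) in 3 of 88 groups examined over 44 genes; chance flags about 1 in 20. Slc25a1 was at 167 FPKM in SG 101 and at 116 to 119.7 in the other SG libraries. Pgd was also high in SG 101, at 20.5 FPKM against 11.8 to 12.6. Aldh1l1 was low in FG 93, at 222 FPKM against 299 to 302.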

How the results depend on the processing

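Acly, Acaca, Acacb, Fasn, Me1, Mid1ip1, Aacs and Srebf1 kept direction and call in all 17 alternatives to the limma fit, with Me1 between -3.41 and -3.01 and Srebf1 between -1.85 and -1.30 on the log2 scale. Acss2 changed its call in 11 of them and Slc25a1, called with library weights (adjusted p = 0.0189) and without SG 101, in 2. The count of the 10 genes called lower was 8 to 10 when 1 library was left out. Of all tested genes 1912 were called, 1544 lower. With no filter the counts were 1133 and 914, with median-ratio scaling 1044 and 499, with trimmed-mean scaling 1050 and 502, and with quantile normalization 1078 and 616. Leaving out 1 library gave 834 to 2363 and 653 to 1896. Of the list genes 21 were lower and 9 higher. The lower count was 13 with no filter, 9 with median-ratio and trimmed-mean scaling, 13 with quantile normalization, and 12 to 28 without 1 library. The higher count was 4 with no filter, 15 with library weights, and 5 to 8 without 1 library. The log2 fold change of Prkaa1 turned to 0.00395 with median-ratio scaling, 0.00397 with trimmed-mean scaling and 0.00793 with quantile normalization. Without 1 library that of Mlycd ranged from -0.0461 to 0.0661 and that of Insig1 from -0.0108 to 0.213. None of these 3 genes passed in those fits. The cause of these shifts was not tested. With 7 libraries the smallest exact two-sided p is 0.0571, so the pair tests were not repeated without 1 library; all 26 passed pairs kept their direction. With a pseudocount of 0.1 the count of pairs was 26. At least 415 fragments stood behind each value of the 10 genes; other depths and library numbers were not run.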
